A study of Mus musculus with 6 samples.

Results

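The 10 genes described here encode enzymes and regulators that remove reactive oxygen species or detoxify reactive compounds: Gpx1, Gpx3, Gpx4, Sod2, Sod3, Cat, Nqo1, Hmox1, Gstm1 and Txnip. They were taken by symbol from the 31053 genes listed with the counts, and all 10 were found, each in 1 row. Their transcripts were counted in single stromal vascular cells of mouse inguinal white adipose tissue (iWAT), the subcutaneous fat pad of the groin, in which beige adipocytes form in the cold. The C57BL/6 mice were young, at 9 weeks, or aged, at 57 weeks, and all had spent 3 weeks at 30 °C, which is thermoneutrality (TN) for mice. Thereafter they stayed at 30 °C, or spent the last 3 days (3D) or 14 days (14D) at 6 °C. Each of the 6 combinations of age and temperature gave 1 library, so the libraries are young TN, young 3D, young 14D, aged TN, aged 3D and aged 14D. The animals were males of the C57BL/6JN or C57BL/6J substrain by the study's methods, which do not say which libraries came from which, so substrain and age cannot be told apart, and the number of mice behind each library was not given in the sources used here. Immune cells carrying CD45 had been removed by cell sorting. With 1 library per age and temperature, a difference at a single temperature could not be tested, and no p-value measures the spread between like libraries. P-values for age and temperature measure only the spread left between these libraries after both terms. That spread includes any change of the age effect with temperature.

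Reactive oxygen species arise mainly from the respiratory chain and from oxidases. Superoxide dismutases turn superoxide into hydrogen peroxide, which catalase and the glutathione peroxidases reduce to water, and peroxidases of this family also reduce lipid peroxides. A further layer of enzymes conjugates or reduces electrophiles, degrades heme, or sets the redox state of thioredoxin, and many of these genes are targets of the transcription factor NRF2, which KEAP1 holds in check. In fat, GPX3 and SOD3 work outside the cell, while the mitochondrial enzymes serve cells with high respiration such as thermogenic adipocytes.

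The peroxidase genes were Gpx1 (ENSMUSG00000063856, chr9:108338903-108340343, plus strand), which encodes the cytosolic enzyme, Gpx3 (ENSMUSG00000018339, chr11:54902453-54910377, plus strand), which encodes the secreted enzyme, and Gpx4 (ENSMUSG00000075706, chr10:80047166-80056439, plus strand), which encodes the enzyme that reduces lipid hydroperoxides in membranes. The dismutase genes were Sod2 (ENSMUSG00000006818, chr17:13006846-13040063, plus strand), whose product works in the mitochondrial matrix, and Sod3 (ENSMUSG00000072941, chr5:52363791-52371418, plus strand), whose product is extracellular. Cat (ENSMUSG00000027187, chr2:103453849-103485160, minus strand) encodes the peroxisomal catalase. Gstm1 (ENSMUSG00000058135, chr3:108012255-108017973, minus strand) encodes a mu-class glutathione S-transferase, and close paralogs surround it, between which the authors' counting could have split reads. Nqo1 (ENSMUSG00000003849, chr8:107388225-107403206, minus strand) encodes a quinone reductase and is a classical NRF2 target. Hmox1 (ENSMUSG00000005413, chr8:75093621-75100589, plus strand) encodes the inducible heme oxygenase. Txnip (ENSMUSG00000038393, chr3:96557957-96561883, plus strand) encodes the protein that binds thioredoxin and limits glucose uptake, and its transcription rises with glucose. All 10 are annotated as protein-coding, positions are those of GRCm38, and each value below is the sum over all transcripts of the gene.

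The promoters of the 4 members that differed between temperatures (below) are shown because that response is the one a regulatory sequence could be set beside. Each run is the 250 bases before a RefSeq transcript start in GRCm38.p6, at chr17:13007589-13007838 for Sod2, chr11:54902604-54902853 for Gpx3 and chr3:96557707-96557956 for Txnip, all on the plus strand, and at chr3:108017974-108018223 on the minus strand for Gstm1, the outer of its 2 listed starts. Capitals mark GC boxes (GGGCGG, read on either strand) and, in Txnip, also a pair of half-sites (CACGNG, 5 bases of any kind, then CACGNG again), a form of the carbohydrate response element described for this gene and searched for after the sequence had been seen.
Sod2: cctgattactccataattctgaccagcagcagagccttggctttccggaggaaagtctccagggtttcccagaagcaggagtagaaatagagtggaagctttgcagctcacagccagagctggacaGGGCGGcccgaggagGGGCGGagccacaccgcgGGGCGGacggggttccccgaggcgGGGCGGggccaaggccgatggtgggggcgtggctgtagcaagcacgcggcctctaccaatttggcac
Gpx3: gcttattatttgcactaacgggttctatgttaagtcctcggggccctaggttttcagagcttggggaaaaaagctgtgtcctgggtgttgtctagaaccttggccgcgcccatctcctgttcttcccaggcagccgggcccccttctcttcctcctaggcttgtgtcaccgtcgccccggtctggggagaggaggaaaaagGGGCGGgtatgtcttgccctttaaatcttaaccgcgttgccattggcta
Txnip: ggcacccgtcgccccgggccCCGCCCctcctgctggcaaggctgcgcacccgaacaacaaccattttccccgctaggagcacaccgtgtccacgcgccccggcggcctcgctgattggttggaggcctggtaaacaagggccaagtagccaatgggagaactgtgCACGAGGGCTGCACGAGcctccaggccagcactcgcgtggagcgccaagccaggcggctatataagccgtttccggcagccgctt
Gstm1: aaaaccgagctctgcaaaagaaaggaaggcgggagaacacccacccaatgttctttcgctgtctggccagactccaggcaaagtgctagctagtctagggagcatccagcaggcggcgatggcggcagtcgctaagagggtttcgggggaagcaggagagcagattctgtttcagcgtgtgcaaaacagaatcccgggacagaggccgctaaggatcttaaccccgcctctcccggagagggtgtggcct
The Sod2 window holds 4 GC boxes, the Gpx3 window 1 and the Txnip window 1, and both Gstm1 windows hold 0 of them and 0 pairs of half-sites. Over windows of 250 bases before to 50 after a start, 35.7% of all 32851 RefSeq windows hold a GC box and 16 windows (0.0487%) hold the pair of half-sites. Of the members, 8 of 10 have such windows, 12 in all, and Sod3 and Hmox1 have none in the table used. The letters of the antioxidant response element core (TGACNNNGC, either strand) are in 12.4% of all windows and those of the E-box CACGTG in 7.15%, and neither is in any of the 12 windows. Sequence outside these windows was not searched, so this does not show that the genes lack such elements.

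Cells were sorted into classes by detected marker genes, none of which is a member, and classes are named by the markers that gated them. The 57326 cells kept held 19454 Dpp4+ fibroblasts (1956 to 4732 per library), 16553 Icam1+ preadipocytes (1659 to 3565) and 5066 Cd142+ fibroblasts (706 to 928), the fibroblastic progenitor classes of this depot. A further 3678 were endothelial cells (376 to 1142), 689 were smooth muscle cells and pericytes (SMC/pericytes, 74 to 252), 237 immune cells and 107 Schwann cells. Another 6386 fibroblasts fell into no class and 5156 cells were left unassigned, 4107 of them in the aged 14D library. That library stood apart: it held 52068837 UMIs (molecular barcodes that let each transcript be counted once) against 68479481 to 88508349 in the others, and 38.2% of its barcodes had fewer than 2000 UMIs against 7.04% to 11.7%. The tests of the members below were therefore also run without it. Marker sums, ratios, correlations, shares of cells with a UMI and the values of further genes are given only with it. Of all fibroblasts, 10.8% lay close to the limit between classes (within 0.1 of the margin of 0.25), and any pair of libraries shared 30 to 44 barcodes, at most 0.379% of the smaller library. Adipocyte genes summed to 2.43 to 23.5 CPM (UMIs of a gene or list scaled to a common total for each class and library) in the fibroblast classes and to 257 to 1033 CPM in endothelial cells. Levels below are CPM of a class in a library, and since they are shares of a class's UMIs they do not give molecules per cell.

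All 10 members differed between the 5 tested classes (edgeR's quasi-likelihood F test on 30 sums with library as a block, adjusted p at most 0.0313), where 92.8% of all genes did. Fibroblasts carried the extracellular enzymes: Gpx3 and Sod3 were high in all 3 fibroblast classes and near their lowest in endothelial cells. Txnip was lowest in Dpp4+ fibroblasts and highest in endothelial cells and SMC/pericytes, and Nqo1 was highest in endothelial cells. Gpx1 and Gpx4 had the smallest ratios of the highest to the lowest class mean. Log2 differences between classes are on the TMM scale, which lowers a gene of equal CPM by 0.29 in endothelial cells and 0.40 in SMC/pericytes relative to Dpp4+ fibroblasts, and changes it by at most 0.05 in the other 2 fibroblast classes.

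**Figure D1:**
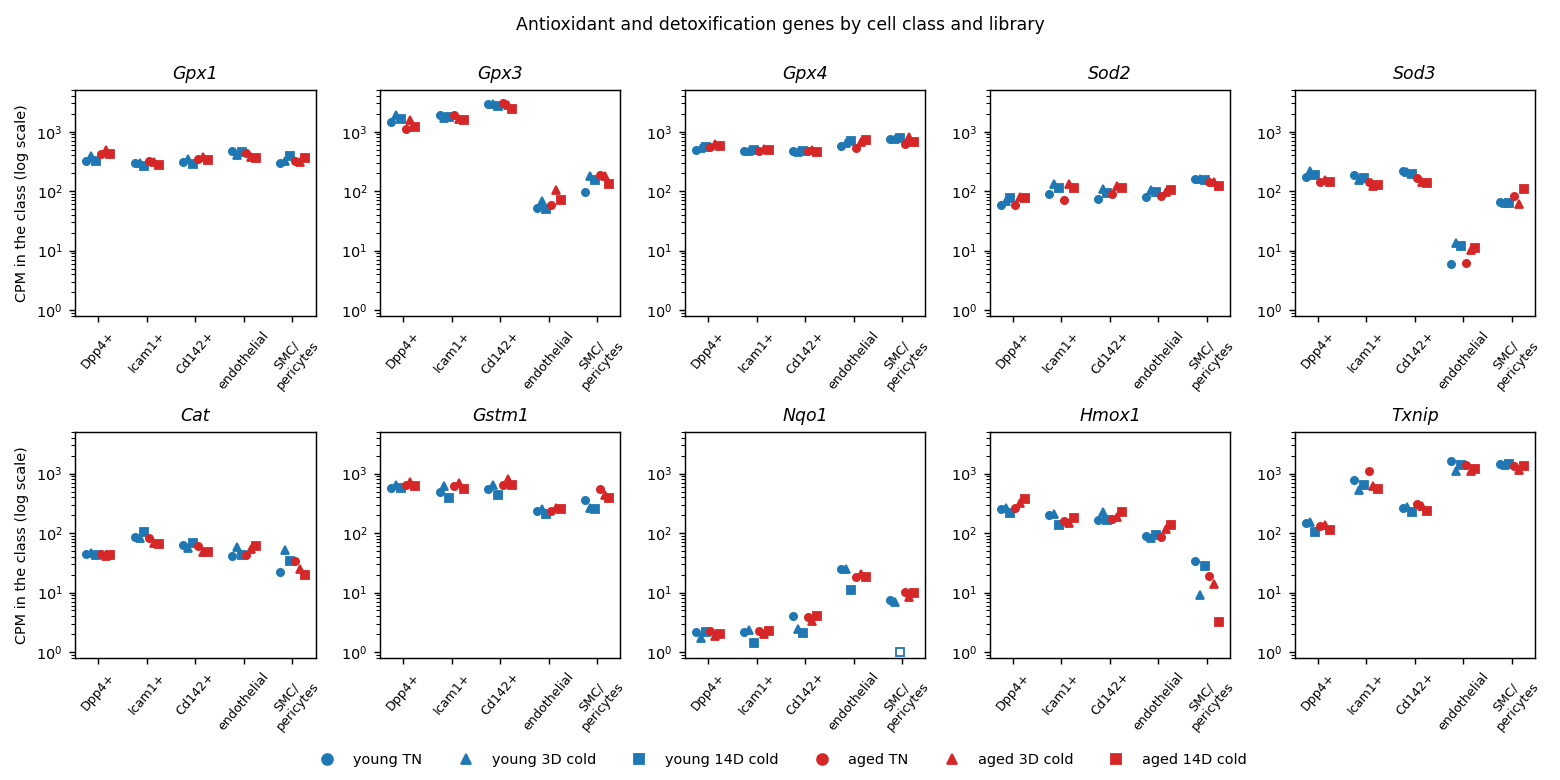
Level of each of the 10 genes (CPM, log axis) in the 5 tested classes, with 1 point per library, blue for young and red for aged, shaped by temperature (an open symbol at the bottom stands for 0 CPM). Gpx3 and Sod3 lie highest in the fibroblast classes, Txnip in endothelial cells and SMC/pericytes, and Nqo1 in endothelial cells.

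Gpx3 averaged 1482 ± 295 CPM (SD, n = 6 libraries) in Dpp4+ fibroblasts, 1757 ± 139.6 in Icam1+ cells and 2818 ± 212 in Cd142+ cells. It averaged 66.9 ± 19.8 CPM in endothelial cells and 155 ± 35.1 in SMC/pericytes. Cd142+ fibroblasts thus held the highest level of the secreted peroxidase in all 6 libraries, with a log2 difference of 0.99 (SE 0.13, adjusted p = 2.47e-07) over Dpp4+ fibroblasts and of 0.68 (SE 0.13) over Icam1+ preadipocytes. The difference of 0.30 between Icam1+ preadipocytes and Dpp4+ fibroblasts was close to the threshold (adjusted p = 0.0421), and without young TN, aged TN or aged 14D it had adjusted p of 0.0847, 0.154 and 0.122, with values of 0.27, 0.21 and 0.27. The log2 difference between endothelial cells and Dpp4+ fibroblasts was -4.77 (SE 0.16). Their 49.3 to 104 CPM came with 549 to 914 CPM of the 10 fibroblast markers, against 24041 to 51275 CPM in the fibroblast classes. Per 100 UMIs of those markers, endothelial cells held 5.58 to 14.7 Gpx3 UMIs and the fibroblast classes 3.95 to 8.28. The part of fibroblast RNA in the endothelial level was not tested.

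Sod3 averaged 170.0 ± 29.4 CPM in Dpp4+ fibroblasts, 149 ± 24.3 in Icam1+ cells and 179 ± 35.2 in Cd142+ cells. In endothelial cells it averaged 9.73 ± 3.00 CPM, a log2 difference of -4.46 (SE 0.15) from Dpp4+ fibroblasts, and in SMC/pericytes 75.0 ± 19.2 CPM, a difference of -1.55 (SE 0.15). Vascular mural cells therefore held more extracellular dismutase transcript than endothelial cells in all 6 libraries, by 2.90 log2 units (SE 0.21). The mitochondrial dismutase Sod2 had a flatter profile, with means from 69.4 ± 9.90 CPM in Dpp4+ fibroblasts to 148 ± 15.0 in SMC/pericytes. It was higher in Icam1+ preadipocytes (0.68, SE 0.08) and Cd142+ fibroblasts (0.58, SE 0.09), each against Dpp4+ cells, and the difference of -0.11 between those 2 classes did not pass (adjusted p = 0.340).

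Txnip averaged 131 ± 18.5 CPM in Dpp4+ fibroblasts and 703 ± 217 in Icam1+ preadipocytes, a log2 difference of 2.44 (SE 0.11, adjusted p = 1.67e-17). Cd142+ fibroblasts lay between them at 265 ± 32.0 CPM, without overlap of the 6 libraries on either side. Endothelial cells (1312 ± 215 CPM) and SMC/pericytes (1359 ± 116 CPM) were the highest, and their difference of -0.06 (SE 0.11) did not pass (adjusted p = 0.710). Catalase followed part of this order among fibroblasts, with 81.3 ± 13.2 CPM in Icam1+ preadipocytes, 57.1 ± 7.74 in Cd142+ fibroblasts and 43.7 ± 1.39 in Dpp4+ fibroblasts. The log2 difference of Cat between Icam1+ preadipocytes and Dpp4+ fibroblasts was 0.93 (SE 0.09).

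Among the detoxifying enzymes, Gstm1 was evenly spread over the fibroblast classes, with means of 632 ± 57.4, 562 ± 105 and 615 ± 123 CPM in Dpp4+, Icam1+ and Cd142+ cells. It was lower in endothelial cells (242 ± 20.4 CPM, -1.68, SE 0.11) and SMC/pericytes (375 ± 110.2 CPM, -1.15, SE 0.11) than in Dpp4+ fibroblasts. Hmox1 was highest in Dpp4+ fibroblasts among the tested classes, at 281 ± 55.2 CPM, and lowest in SMC/pericytes, at 18.1 ± 11.7 CPM (-4.25, SE 0.22). Nqo1 was scarce in fibroblasts, with 1.40 to 4.07 CPM (13 to 80 UMIs) over the 18 sums of the 3 classes, and stood at 11.0 to 25.2 CPM in endothelial cells. Its log2 difference between endothelial cells and Dpp4+ fibroblasts was 2.93 (SE 0.17, adjusted p = 1.17e-15). Endothelial cells thus paired the highest Nqo1 with low Gpx3 and Sod3.

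Gpx1 ranged from 266 to 492 CPM and Gpx4 from 457 to 824 CPM over the 30 sums of the tested classes. The log2 difference of Gpx1 between Icam1+ preadipocytes and Dpp4+ fibroblasts was -0.35 (SE 0.08). Its lower level in SMC/pericytes than in Icam1+ preadipocytes (-0.28, SE 0.09) turned to 0.17 with scaling by total UMIs and to 0.20 with fixed cell limits. Between endothelial cells and Dpp4+ fibroblasts, Gpx1 was at -0.19 on the TMM scale and 0.10 with total UMIs, and Gpx4 at -0.09 and 0.20.

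Counted by pairs of classes, 6 members differed between Icam1+ preadipocytes and Dpp4+ fibroblasts (64.0% of all genes), 7 between Cd142+ and Dpp4+ fibroblasts (46.6%) and 5 between Cd142+ fibroblasts and Icam1+ preadipocytes (38.9%). Endothelial cells differed from Dpp4+ fibroblasts in 7 members (77.6% of all genes), from Icam1+ preadipocytes in 8 (75.6%) and from Cd142+ fibroblasts in 8 (73.7%). SMC/pericytes differed from Dpp4+ fibroblasts in 9 members (60.0%), from Icam1+ preadipocytes in 8 (55.7%), from Cd142+ fibroblasts in 8 (54.9%) and from endothelial cells in 8 (47.3%).

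With age, the clearest difference was in the extracellular dismutase: Sod3 was lower in aged than in young mice in all 3 fibroblast classes, without overlap of the ages in any of them. The 10 fibroblast markers also summed to less in aged libraries, without overlap in Dpp4+ and Cd142+ cells and with overlap in Icam1+ cells, and relative to those markers Sod3 separated the ages in Icam1+ cells alone. Other members moved in 1 or 2 classes each. In Dpp4+ fibroblasts Gpx1 rose and Gpx3 fell, in Icam1+ preadipocytes and Cd142+ fibroblasts Gstm1 rose, and in endothelial cells Gpx3 was higher. Age was tested with temperature as a term, over 3 aged and 3 young libraries with 2 residual degrees of freedom (edgeR's quasi-likelihood test, Benjamini-Hochberg adjustment over all genes). When a library was left out of an age test with this term, the other library of its temperature no longer informed the age estimate. Leaving out the young or the aged library of a temperature therefore gave nearly the same age comparison, and these are not separate checks. Of the members, 3 of 10 passed in Dpp4+ fibroblasts, where 16.0% of all genes did, 2 of 10 in Icam1+ cells (13.3%), 2 of 10 in Cd142+ cells (11.5%) and 1 of 10 in endothelial cells (2.04%). In SMC/pericytes 0 of 9 passed (0.265% of all genes), 1 of them had an unadjusted p under 0.05, and DESeq2 called 0. Nqo1 did not pass the filter on low counts there.

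**Figure D2:**
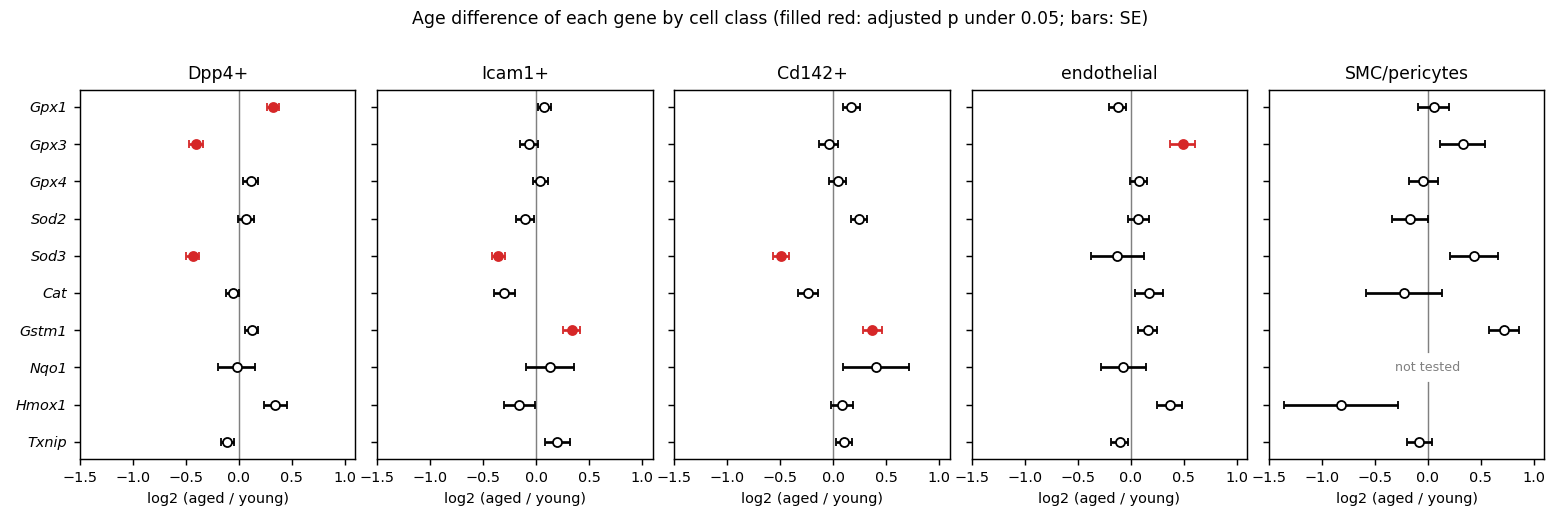
Log2 fold change between aged and young libraries (points, with SE as bars) for each member in the 5 tested classes, filled red where the adjusted p was under 0.05. Sod3 lies below 0 in the 3 fibroblast classes, at -0.43, -0.36 and -0.49.

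Sod3 in Dpp4+ fibroblasts stood at 176, 217 and 189 CPM in young TN, 3D and 14D, and at 142, 151 and 145 CPM in aged TN, 3D and 14D. Every aged library lay below every young one, with means of 194 ± 20.9 and 146 ± 4.78 CPM (SD, n = 3 each). The log2 fold change was -0.43 (SE 0.06, adjusted p = 0.00137 by edgeR's quasi-likelihood test), and it passed under each of the 16 alternatives run, with values from -0.49 to -0.39. Without aged 14D it was -0.42. The fibroblast markers in these cells summed to 30957 to 36595 CPM in young and 24041 to 27796 CPM in aged libraries, also without overlap. Per 100 UMIs of those markers, Sod3 had 0.480, 0.700 and 0.518 UMIs in young and 0.510, 0.629 and 0.555 in aged libraries. On that scale the ages overlapped, and the aged library was lower at 3D and higher at TN and 14D. The part of the shift in fibroblast RNA in this result was not tested.

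In Icam1+ preadipocytes Sod3 stood at 186, 154 and 164 CPM in the young and at 144, 120.1 and 127 CPM in the aged libraries, in the same order. The ages did not overlap, and the log2 fold change was -0.36 (SE 0.06, adjusted p = 0.00626 by edgeR). Without young 3D or without aged 3D the value was -0.38 and no longer passed (adjusted p = 0.0525 and 0.0543), while it passed without aged 14D. In Cd142+ fibroblasts the young libraries held 218, 214 and 196 CPM and the aged ones 164, 142 and 139 CPM. This gave a log2 fold change of -0.49 (SE 0.08, adjusted p = 0.000972), -0.48 without aged 14D, and -0.35 with cells thinned to 2000 UMIs (adjusted p = 0.0634). Per 100 fibroblast-marker UMIs, Sod3 in Icam1+ cells had 0.435 to 0.459 UMIs in young and 0.354 to 0.397 in aged libraries, without overlap, and in Cd142+ cells 0.382 to 0.487 and 0.365 to 0.414, with overlap. The markers themselves summed to 33443 to 42221 and 30258 to 37737 CPM in young and aged Icam1+ cells, and to 43974 to 51275 and 34202 to 40744 CPM in Cd142+ cells. The level in endothelial cells, 6.00 to 13.3 CPM, overlapped between ages (-0.13, adjusted p = 0.882), and in SMC/pericytes Sod3 was at 63.7 to 66.2 CPM in young and 61.8 to 111 CPM in aged mice (0.44, SE 0.22, adjusted p = 0.525).

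Gpx1, the cytosolic peroxidase, stood in Dpp4+ fibroblasts at 317, 397 and 322 CPM in young and at 415, 492 and 415 CPM in aged libraries. It was higher in the aged library at each of the 3 temperatures and the ages did not overlap. Aged over young, its log2 fold change was 0.33 (SE 0.06, adjusted p = 0.00469), and 0.35 without aged 14D. Gpx3 moved the other way in the same cells, from 1445, 1919 and 1646 CPM in young to 1115, 1559.5 and 1208 CPM in aged libraries. It was lower in the aged library at each temperature, although aged 3D lay above young TN. Its log2 fold change was -0.40 (SE 0.07, adjusted p = 0.00385), and -0.34 without aged 14D or without young 14D. Per 100 fibroblast-marker UMIs, Gpx3 had 3.95, 6.20 and 4.51 UMIs in young and 4.01, 6.49 and 4.61 in aged libraries, slightly higher in the aged library at each temperature. Gpx1 had 0.865, 1.28 and 0.883 in young and 1.49, 2.05 and 1.58 in aged libraries on that scale, without overlap. Both calls ended when the temperature term was left out (adjusted p = 0.137 and 0.177). In Icam1+ preadipocytes and Cd142+ fibroblasts Gpx3 differed between ages by -0.06 (SE 0.08) and -0.04 (SE 0.09), and Gpx1 by 0.08 (SE 0.06) and 0.17 (SE 0.08), and none passed. In Dpp4+ fibroblasts, hemoglobin and other red blood cell RNA summed to 3.82 to 161 CPM in young and 139 to 531 CPM in aged libraries (5 of 5 tested genes were higher in aged mice), and 3 of 5 tested adipocyte genes were higher too. Of all 13274 genes tested there, 1067 were higher. The part of red blood cell and adipocyte RNA in these results was not tested.

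Gstm1 stood in Icam1+ preadipocytes at 499.6, 613 and 393 CPM in young and at 621, 689.6 and 555 CPM in aged libraries. It was higher in the aged library at each temperature, while aged 14D lay below young 3D. The log2 fold change was 0.34 (SE 0.08, adjusted p = 0.0255), and it no longer passed without young 3D (0.39, adjusted p = 0.0604), aged 3D (0.39, 0.0604), young 14D (0.25, 0.106) or aged 14D (0.25, 0.113). In Cd142+ fibroblasts Gstm1 went from 542, 642 and 435 CPM to 631, 807 and 632 CPM. There the log2 fold change was 0.37 (SE 0.09, adjusted p = 0.0140), and it no longer passed without young 14D (0.29, 0.0946) or aged 14D (0.30, 0.105). SMC/pericytes had the widest separation of Gstm1, with 257 to 356 CPM in young and 387 to 548 CPM in aged libraries and no overlap. There, the log2 fold change of Gstm1, 0.72 (SE 0.14), in these few cells missed the threshold (adjusted p = 0.0536), and 7 of the 16 alternatives called it. Txnip, Sod2 and the scarce Nqo1 did not overlap there either. Txnip and Sod2 did not pass by edgeR (adjusted p = 0.853 and 0.788), and Nqo1 was not tested. The share of all genes without overlap was not computed. In Icam1+ preadipocytes macrophage RNA summed to 7.97 to 15.4 CPM in young and 25.2 to 32.3 CPM in aged libraries, with 6 of 8 tested genes higher, and 3 of 5 tested adipocyte genes were higher. Of all genes tested, 986 of 13364 were higher in Icam1+ cells, and 646 of 11513 were higher and 680 lower in Cd142+ cells. In Cd142+ fibroblasts 3 of 4 tested red blood cell genes were lower and 1 of 2 adipocyte genes higher, and that class had a median of 3882 UMIs per cell in aged 14D. The part of these in the Gstm1 and Sod3 results was not tested.

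Gpx3 in endothelial cells stood at 51.9, 67.1 and 49.3 CPM in young and at 58.6, 104 and 70.8 CPM in aged libraries. The ages overlapped, although the aged library was higher at each temperature. The log2 fold change was 0.49 (SE 0.12, adjusted p = 0.0424), and the call was lost without young 3D (0.37, adjusted p = 0.344), aged 3D (0.37, 0.359), young 14D (0.47, 0.133) or aged 14D (0.47, 0.119). With cells thinned to 2000 UMIs it was 0.14 (adjusted p = 0.862), and DESeq2 did not call it (0.372). The fibroblast markers in endothelial cells summed to 669.8 to 883 CPM in young and 549 to 914 CPM in aged libraries, and adipocyte genes to 257 to 654 and 527 to 1033 CPM.

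Some members came near the threshold for age without passing it. Hmox1 in Dpp4+ fibroblasts stood at 255, 261 and 216 CPM in young and at 264, 319 and 372 CPM in aged libraries, which did not overlap (0.34, SE 0.11, adjusted p = 0.0577, called in 7 of 16 alternatives). Sod2 in Cd142+ fibroblasts had a log2 fold change of 0.24 (adjusted p = 0.0588), and Cat in Icam1+ preadipocytes one of -0.30 (adjusted p = 0.0777), from 90.1 ± 11.0 CPM in young to 72.5 ± 9.06 CPM in aged mice. The membrane peroxidase Gpx4 differed by at most 0.11 log2 units in size between ages in the 5 classes. In Dpp4+ fibroblasts its ages did not overlap, at 499, 524 and 555 CPM in young and 563, 612 and 566 CPM in aged libraries, and it did not pass (adjusted p = 0.317 by edgeR). Nqo1 in endothelial cells overlapped between ages, with 24.4, 25.2 and 11.0 CPM in young and 18.3, 20.8 and 18.0 CPM in aged libraries.

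Cold exposure was compared in the same fits by a joint test of 3D and 14D against TN, with age as a term and 2 libraries per temperature. Sod2 was higher in the cold in Icam1+ preadipocytes and Cd142+ fibroblasts, at 3D and at 14D and at both ages. Txnip was lower at both cold times in Icam1+ preadipocytes and lower at 14D in Dpp4+ fibroblasts. Gpx3 was highest at 3D in Dpp4+ fibroblasts and in endothelial cells, and Gstm1 in Icam1+ preadipocytes was highest at 3D and lowest at 14D. Of the members, 2 of 10 passed in Dpp4+ fibroblasts (5.27% of all genes), 3 of 10 in Icam1+ preadipocytes (5.22%), 1 of 10 in Cd142+ fibroblasts (2.80%) and 1 of 10 in endothelial cells (2.08%). In SMC/pericytes 0 of 9 passed (0.248% of all genes), 1 had an unadjusted p under 0.05, and DESeq2 called 0.

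**Figure D3:**
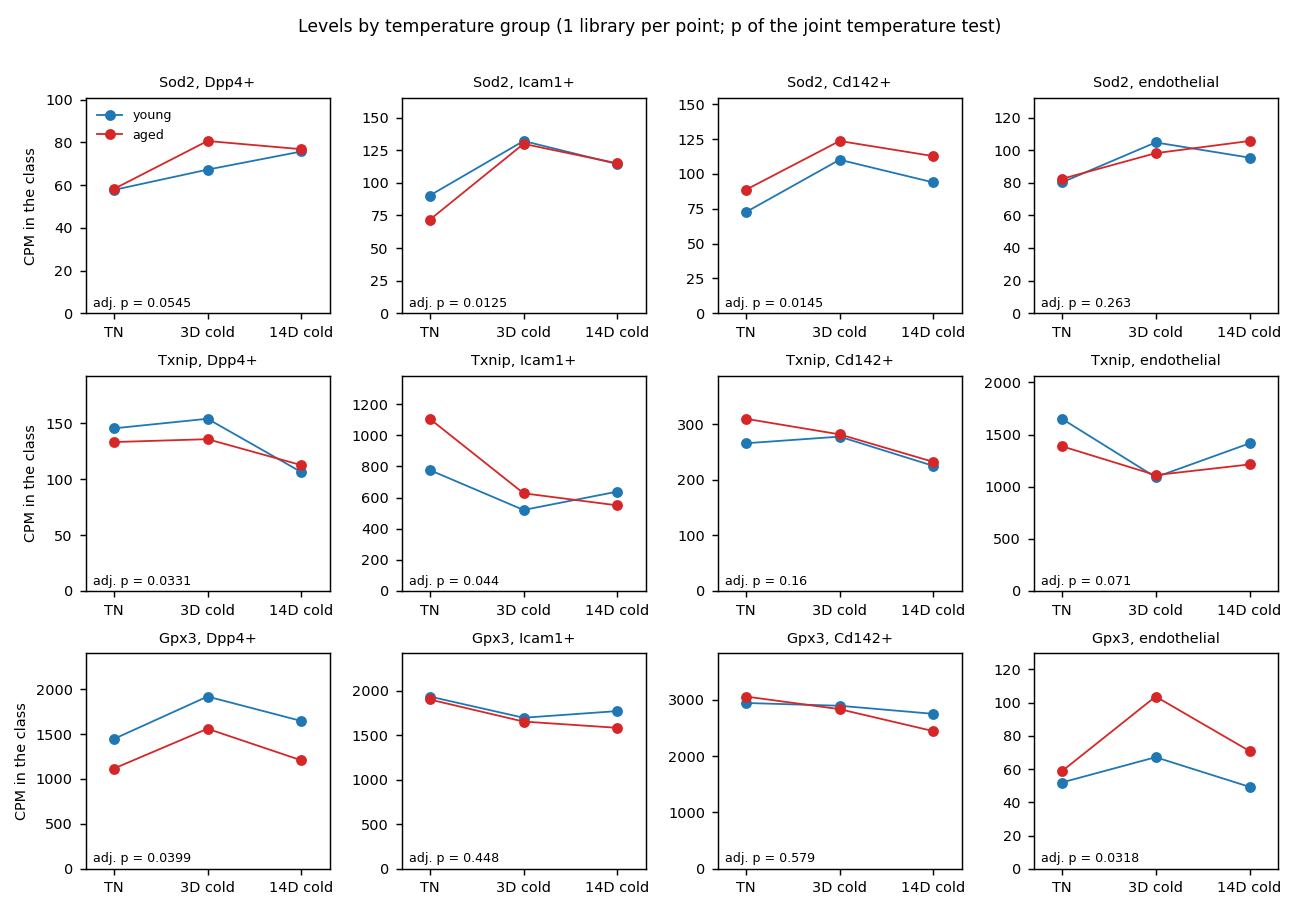
Levels (CPM) of Sod2, Txnip and Gpx3 at TN, 3D and 14D in the fibroblast classes and endothelial cells, with 1 point per library, a line for each age and the adjusted p of the joint temperature test. Sod2 in Icam1+ preadipocytes lies at 71.6 and 90.2 CPM at TN and at 114 to 132 CPM in the cold.

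Sod2 in Icam1+ preadipocytes stood at 90.2, 132 and 114 CPM in young and at 71.6, 129.8 and 115 CPM in aged TN, 3D and 14D. All 4 cold libraries lay above both TN libraries. Against TN, the log2 fold change was 0.74 (SE 0.10) at 3D and 0.53 (SE 0.10) at 14D (adjusted p = 0.0125 by edgeR's quasi-likelihood test), and the call held without each library in turn. In Cd142+ fibroblasts Sod2 stood at 72.5, 110.1 and 93.8 CPM in young and at 88.5, 124 and 113 CPM in aged libraries. All 4 cold libraries were again above both TN libraries, with log2 fold changes of 0.54 (SE 0.09) and 0.37 (SE 0.10) and an adjusted p of 0.0145. That call was lost by DESeq2 (adjusted p = 0.0758) and with cells thinned to 2000 UMIs (0.106). In Dpp4+ fibroblasts the values were 57.7, 67.2 and 75.7 CPM in young and 58.1, 80.6 and 76.8 CPM in aged libraries, in the same order of temperatures. Its log2 fold changes, 0.33 (SE 0.09) and 0.41 (SE 0.09), missed the threshold (adjusted p = 0.0545), and 9 of 16 alternatives called them.

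The mitochondrially encoded genes moved with Sod2. In Icam1+ preadipocytes their sum was 23072 CPM at young TN and 27003 CPM at aged TN, against 31510.4 to 33154 CPM in the 4 cold libraries. In Cd142+ fibroblasts it was 20922 and 28232 CPM at TN and 28089 to 32052 CPM in the cold, where aged TN overlapped the cold libraries. The part of a shift in mitochondrial RNA or of its share of UMIs in the Sod2 result was not tested.

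Txnip in Icam1+ preadipocytes stood at 777, 520.3 and 638 CPM in young and at 1106, 627 and 549.7 CPM in aged libraries. Both TN libraries lay above all 4 cold ones. The log2 fold change was -0.67 (SE 0.15) at 3D and -0.62 (SE 0.15) at 14D (adjusted p = 0.0440), and it did not pass without young 3D (-0.58 at 3D, adjusted p = 0.0901), aged TN (-0.44, 0.151) or aged 3D (-0.76, 0.0676), nor by DESeq2 (0.292). In Dpp4+ fibroblasts Txnip was at 145, 154 and 106 CPM in young and at 133, 136 and 112 CPM in aged libraries, with both 14D libraries lowest. At 14D the log2 fold change was -0.34 (SE 0.07) and at 3D 0.04 (SE 0.07), with an adjusted p of 0.0331. It did not pass without young TN (-0.31 at 14D, adjusted p = 0.0783), young 3D (-0.34, 0.0913), young 14D (-0.25, 0.135), aged TN (-0.36, 0.0597) or aged 3D (-0.34, 0.0776), and without aged 14D it was -0.41 and passed. In endothelial cells Txnip stood at 1651, 1091 and 1415 CPM in young and at 1388, 1111 and 1213 CPM in aged libraries. It had a log2 fold change of -0.43 (SE 0.10) at 3D and -0.19 (SE 0.10) at 14D, with an adjusted p of 0.0710.

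Gpx3 in Dpp4+ fibroblasts averaged 1280.0 CPM over both TN libraries, 1739 at 3D and 1427 at 14D. At both ages the 3D library was the highest, and the log2 fold change at 3D was 0.43 (SE 0.08, adjusted p = 0.0399). It did not pass without young TN (0.42, adjusted p = 0.171), young 3D (0.51, 0.113), aged TN (0.44, 0.148) or aged 3D (0.35, 0.289). In endothelial cells the 3D libraries were the highest as well, with a log2 fold change of 0.67 (SE 0.14) at 3D and 0.15 (SE 0.15) at 14D (adjusted p = 0.0318). That did not pass without aged TN (0.42, adjusted p = 0.0769) or aged 3D (0.48, 0.555), nor by DESeq2 (0.807). Red blood cell RNA was highest at 3D as well: it summed in endothelial cells to 911, 3111 and 959 CPM in young and 2264, 2579 and 582 CPM in aged libraries (4 of 4 tested genes called for temperature), and in Dpp4+ fibroblasts to 4.02, 161 and 3.82 CPM and to 139, 531 and 225 CPM (3 of 5 called). Adipocyte genes in endothelial cells summed to 608, 654 and 257 CPM in young and 527, 1033 and 821 CPM in aged libraries (2 of 5 called). Of all genes, 2.08% were called for temperature in endothelial cells and 5.27% in Dpp4+ fibroblasts. The part of red blood cell and adipocyte RNA in the Gpx3 results was not tested. Icam1+ preadipocytes, by contrast, held 1919 CPM at TN and 1676 and 1678 CPM in the cold, a difference that did not pass. Gstm1 in Icam1+ preadipocytes averaged 560.2, 651 and 474 CPM at TN, 3D and 14D, with the 3D library highest and the 14D library lowest at both ages. Its log2 fold changes were 0.26 (SE 0.10) and -0.23 (SE 0.10), with an adjusted p of 0.0485, and it did not pass without young 3D (0.17 at 3D, adjusted p = 0.298), young 14D (0.26, 0.0708) or aged 3D (0.35, 0.121).

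Whether the age effect itself differed between classes was tested on the 30 sums. Jointly over the classes 0 of 10 members passed (2.96% of all genes), 3 had an unadjusted p under 0.05 (Gpx3, Gstm1 and Sod3, with adjusted p of 0.0853, 0.228 and 0.257), and DESeq2 called 0. Of the single contrasts, 1 member passed between endothelial cells and Dpp4+ fibroblasts (1.06% of all genes), which was Gpx3: its age effect was higher in endothelial cells by 0.92 log2 units (SE 0.22, adjusted p = 0.0348). It did not pass without young 3D (0.98, adjusted p = 0.0661), young 14D (0.82, 0.257), aged 3D (0.78, 0.145) or aged 14D (0.93, 0.129). The age effects on Sod3 in the 3 fibroblast classes, and those on Gpx1 in Dpp4+ fibroblasts against the other 2, were not shown to differ.

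The wider antioxidant system was described with 103 further genes, grouped by role. In Dpp4+ fibroblasts 103 were tested, of which 17 were higher and 15 lower with age, where 16.0% of all genes tested passed in either direction. Those named below beyond the 6 largest age effects per class were chosen after their values had been seen. In Icam1+ preadipocytes 13 of 102 were higher and 9 lower (13.3% of all genes), in Cd142+ fibroblasts 11 of 100 were higher and 8 lower (11.5%), and in endothelial cells 2 of 96 were higher and 1 lower (2.04%). DESeq2 called 19, 11, 10 and 1 genes of the list in these 4 classes, where edgeR called 32, 22, 19 and 3 in either direction. In SMC/pericytes 0 of 67 passed with edgeR, 14 had an unadjusted p under 0.05 and DESeq2 called 0. The median log2 fold change of the list was -0.03, 0.02, 0.01, 0.02 and -0.05 in these classes, where that of all genes tested was 0.00 in each. By temperature 8, 8, 5 and 4 of its genes passed in the first 4 classes (5.27%, 5.22%, 2.80% and 2.08% of all genes) and 0 in SMC/pericytes, where 6 had an unadjusted p under 0.05 and DESeq2 called 0.

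**Figure D4:**
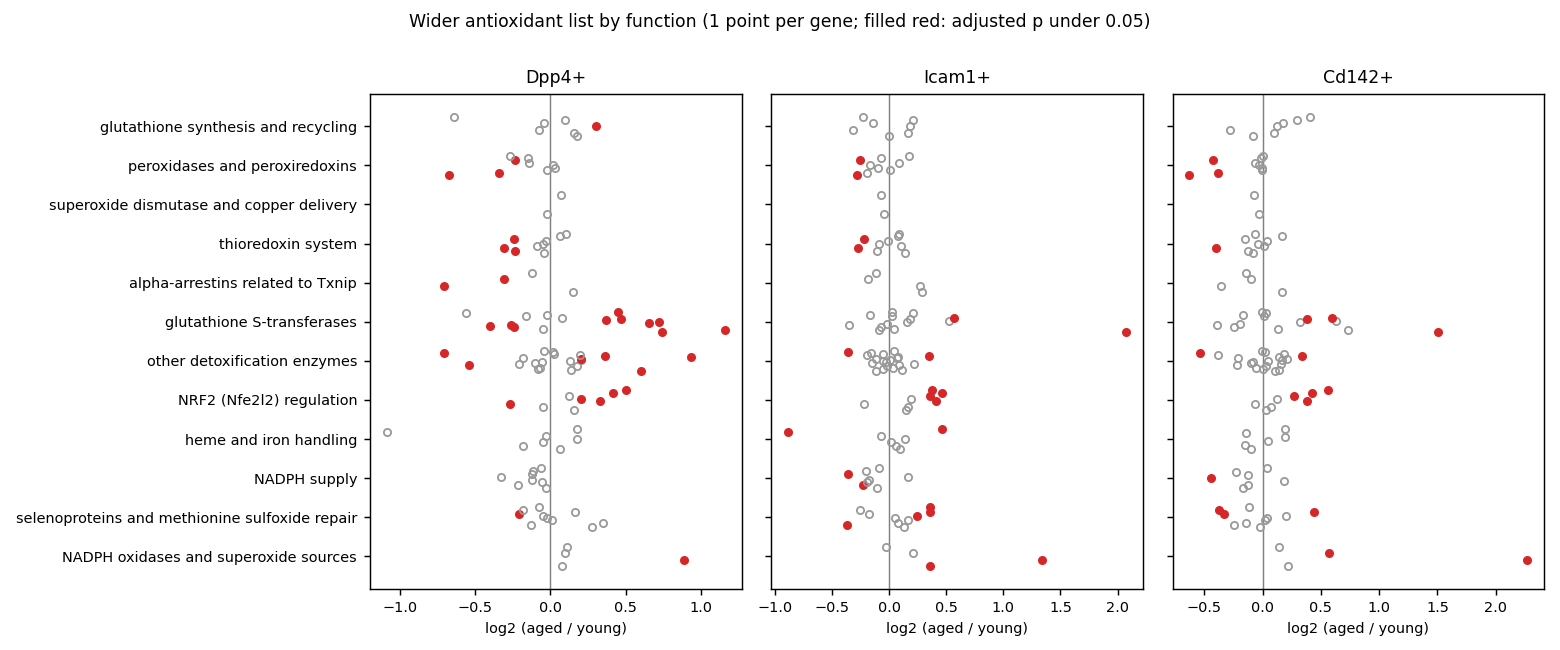
Log2 fold change between aged and young libraries for each gene of the wider list (1 point per gene, filled red at an adjusted p under 0.05), by role group and fibroblast class. The group of NRF2 regulators has 4 of 8 genes higher in each class, and the peroxidases and peroxiredoxins have 3, 2 and 3 of 9 lower.

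Of the 8 regulators of NRF2, 4 were higher with age in each fibroblast class and 1 was lower in Dpp4+ cells, where 1067 of all 13274 genes tested were higher (986 of 13364 in Icam1+ and 646 of 11513 in Cd142+ cells). DESeq2 called 3, 4 and 2 of these regulators in Dpp4+, Icam1+ and Cd142+ cells, in either direction. The group holds genes that act for and against NRF2, so its counts give no direction for the pathway. Not all of the 4 higher genes are named below. Nfe2l2, which encodes NRF2 itself, rose by 0.42 in Dpp4+ cells (298 ± 28.6 to 406 ± 39.8 CPM, adjusted p = 0.00889), by 0.47 in Icam1+ cells (149 ± 19.5 to 205 ± 25.9 CPM) and by 0.42 in Cd142+ cells. Sqstm1, whose product p62 binds KEAP1, rose by 0.51, 0.38 and 0.57 in the same order. The small MAF gene Maff rose by 0.33, 0.41 and 0.38, and Keap1 fell by 0.27 in Dpp4+ fibroblasts. Nqo1, the member that is a classical target of this factor, was scarce, at 2.03 ± 0.264 and 2.04 ± 0.192 CPM in young and aged Dpp4+ fibroblasts (32 to 80 UMIs per library). The members Hmox1 and Gstm1 differed with age by 0.34 and 0.12 in Dpp4+, -0.16 and 0.34 in Icam1+, and 0.08 and 0.37 in Cd142+ cells. Of these only Gstm1 in Icam1+ and Cd142+ cells passed. NRF2 activity was not tested. Of the 10 genes that respond to tissue dissociation, 2 were higher and 1 lower with age in Dpp4+ fibroblasts, 1 higher in Icam1+ cells, and 1 higher in Cd142+ cells, and their part in these values was not tested.

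Peroxidases other than the members fell where they passed. Of the 9 peroxidases and peroxiredoxins, 3, 2 and 3 were lower in Dpp4+, Icam1+ and Cd142+ cells, and DESeq2 called 3, 0 and 2. Of all genes tested, 1058 of 13274, 791 of 13364 and 680 of 11513 were lower in those classes. Gpx7, which encodes a peroxidase of the endoplasmic reticulum, fell by 0.67 on the log2 scale in Dpp4+ fibroblasts (from 62.6 ± 9.73 to 39.9 ± 4.34 CPM, adjusted p = 0.000183) and by 0.63 in Cd142+ fibroblasts, and by 0.28 in Icam1+ preadipocytes. Prdx5 was lower in all 3 classes, at -0.24, -0.25 and -0.42, and Gpx8 in Dpp4+ and Cd142+ fibroblasts. The glutathione S-transferases split: in Dpp4+ fibroblasts 7 of 15 were higher and 3 lower, the latter Gstm2, Gstm4 and Gstm5, which are paralogs of the member Gstm1. DESeq2 called 5 of the 15 there. Gstt1 rose by 0.37 in Dpp4+ fibroblasts, and Gstt2 by 0.57 in Icam1+ cells and 0.59 in Cd142+ cells. Gstt2 also had log2 fold changes of 1.27 and 1.04 at 3D in those 2 classes, and its ages overlapped in both.

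Other genes of the list with large age effects were Duox1, which encodes a hydrogen peroxide producing oxidase, and Adh1, an alcohol dehydrogenase. Duox1 rose in Dpp4+ fibroblasts from 24.2 ± 1.45 to 45.8 ± 2.45 CPM (0.89, SE 0.06, adjusted p = 1.64e-05), and Adh1 from 25.3 ± 2.31 to 39.4 ± 7.73 CPM (0.60). Nox4, another oxidase gene, rose by 0.57 in Cd142+ fibroblasts, and Selenop, which encodes a secreted selenium carrier, by 0.44. Fmo1, a flavin monooxygenase gene, fell by 0.54 in Cd142+ fibroblasts, although the ages overlapped. In Icam1+ preadipocytes the repair enzyme gene Msrb1 fell by 0.37 and Pgd, of the NADPH-producing pentose phosphate pathway, by 0.36. Across temperature, changes in all 3 fibroblast classes included those of Xdh, a superoxide source, which was higher at 3D by 0.44, 0.77 and 0.55 in the 3 fibroblast classes and of the small MAF gene Mafk (0.43, 0.41 and 0.48).

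Counts in the small groups that follow are to be set beside those of all genes tested. With age 1067 of 13274 were higher and 1058 lower in Dpp4+ cells. The counts were 986 and 791 of 13364 in Icam1+ and 646 and 680 of 11513 in Cd142+ cells. Of the 10 selenoprotein and repair genes, 1 was lower in Dpp4+, 3 higher and 1 lower in Icam1+, and 1 higher and 2 lower in Cd142+ cells. Of the superoxide dismutase and copper delivery pair (Sod1 and Ccs) 0 passed in any of the 3. Of the 9 thioredoxin system genes, 3, 2 and 1 were lower with age in Dpp4+, Icam1+ and Cd142+ cells, with Glrx5 lower in each of them (-0.31, -0.27 and -0.40). Among the 4 alpha-arrestins related to Txnip, 2 were lower in Dpp4+ fibroblasts, Arrdc3 at -0.31 and the scarcely detected Arrdc2. Glutathione synthesis had 1 of 7 genes higher in Dpp4+ fibroblasts (Gsr, 0.30). NADPH supply had 2 of 8 lower in Icam1+ cells and 1 of 7 lower in Cd142+ cells. Heme and iron handling, the group of Hmox1, had 1 of 7 higher and 1 lower in Icam1+ preadipocytes. Other detoxification enzymes had 4 of 20 higher and 2 lower in Dpp4+ fibroblasts, with Ephx1 higher in all 3 classes (0.36, 0.35 and 0.34). By DESeq2 the calls for the thioredoxin system were 2, 0 and 0 in Dpp4+, Icam1+ and Cd142+ cells, and those for selenoproteins and repair 1, 2 and 3. It called 0 alpha-arrestins, 0 glutathione synthesis genes and 4 other detoxification enzymes in Dpp4+ cells. Heme and iron handling had 0 in Icam1+ cells, and NADPH supply 1 there and 0 in Cd142+ cells.

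The genes whose levels followed each member most closely over the 30 sums of 5 classes and 6 libraries were found by Pearson's r of log2 CPM among 6130 genes with a mean of at least 20 CPM. The sums share libraries and classes, so these values are a description. Gpx3 was closest to Ms4a4d (r = 0.99) and Abca8a (0.98), and Sod3 to Ndn (0.98) and Rbms3 (0.98). Txnip was closest to Spaar (0.97) and Epas1 (0.97), and Nqo1 to Sema3g (0.93) and Tmem252 (0.93). Sod2 was closest to the mitochondrially encoded mt-Nd1 (0.91) and mt-Nd2 (0.90). Hmox1 was closest to Palm (0.95) and Enc1 (0.94), Gstm1 to Mt2 (0.94) and Mpdz (0.93), Gpx4 to Lrrfip2 (0.92) and Fam174a (0.92), Cat to Tgoln1 (0.90) and Dpp9 (0.89), and Gpx1 to Ttc7b (0.81) and Ephx1 (0.79).

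In single cells thinned to 2000 UMIs, Gpx3 was detected in 79.7% of Dpp4+ fibroblasts (exact binomial 95% interval 79.1% to 80.3%), 92.3% of Icam1+ preadipocytes and 90.3% of Cd142+ fibroblasts, and in 92.9%, 99.2% and 95.5% without thinning. In endothelial cells it was detected in 9.60% (8.66% to 10.6%; 17.2% without thinning). Txnip was detected in 82.0% of endothelial cells, 55.8% of Icam1+ preadipocytes and 19.7% of Dpp4+ fibroblasts, or 91.5%, 81.9% and 46.2% without thinning, at median depths of 3537, 8270 and 7667 UMIs. Nqo1 was found in 3.83% of endothelial cells (3.24% to 4.51%) and in 0.411% to 0.711% of cells in the fibroblast classes (6.99% and 1.57% to 2.13% without thinning). These intervals cover counting error only.

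Immune and Schwann cells were too few for a test. In immune cells Gpx1 stood at 550.4 to 2535 CPM, with its highest value in aged 14D, and Hmox1 at 184 to 531 CPM, and this class also carried 4136 to 16511 CPM of macrophage RNA. No Nqo1 UMI was seen among 237 immune cells, pooled over the libraries and thinned to 2000 UMIs. By counting error alone this limits the share of cells with a UMI at that depth to 1.27%, and it sets no limit on cells that express the gene. Schwann cells held Gpx4 at 609 to 835 CPM and Txnip at 191 to 1091 CPM, in 11 to 29 cells per library.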

How the data were processed

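Cells were counted by 10x Genomics 3' chemistry, and the values are the raw counts of UMIs per gene and cell barcode that the authors deposited, made with Cell Ranger 3.1.0 (per the file headers) on mm10. Cells with over 200 genes and within 3 median absolute deviations per library were kept, and those with at least 2000 UMIs were gated by detected markers. The scoring rule and the 2000-UMI floor were set after seeing the data. The members and lists were chosen with earlier results of these data known. Counts were summed per class and library and tested with edgeR 4.0.16 (quasi-likelihood F test, TMM, filterByExpr, Benjamini-Hochberg adjustment over all genes, threshold 0.05). The same steps were run on simulated counts with age changes of 1 log2 unit and no temperature effect. Changes as small as those of the members that passed for age were not simulated. Age had temperature as a term, and temperature had age. Each SE was derived from the fold change and its F. CPM use all UMIs of a class. All members were named, with the 6 list genes of largest age effect and at least 20 CPM in each fibroblast class. Alternatives were DESeq2 1.42.0 and other scalings, filters, gates, cell limits and left-out libraries. Scaling by total UMIs and dropping the floor were chosen after seeing the data. No doublet caller was run: 1 alternative leaves out cells with markers of another lineage. Positions came from GENCODE M21 and promoters from RefSeq.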

Additional observations from a re-analysis of the deposited data

Results flagged for a closer look

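The age effect on Gpx3, the secreted glutathione peroxidase, differed between endothelial cells and Dpp4+ fibroblasts by 0.92 log2 units (SE 0.22, adjusted p = 0.0348, edgeR's quasi-likelihood test of the interaction over 30 sums). The gene was higher in aged endothelial cells (0.49) and lower in aged Dpp4+ fibroblasts (-0.40), at each of the 3 temperatures. Per 100 fibroblast-marker UMIs, however, Gpx3 in Dpp4+ fibroblasts was slightly higher in the aged library at each temperature. Jointly over the classes, Gpx3 did not pass (adjusted p = 0.0853 by edgeR), and DESeq2 called 0 members. The difference of 0.92 was the 1 member contrast that passed, against 99 that did not, with p-values adjusted only within each contrast. The difference did not pass with scaling by total UMIs (0.82, adjusted p = 0.0630), with cells thinned to 2000 UMIs (0.54, 0.582) or with fixed cell limits (0.73, 0.179), nor without young 3D (0.98, 0.0661), young 14D (0.82, 0.257), aged 3D (0.78, 0.145) or aged 14D (0.93, 0.129).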

How the results depend on the processing

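Of the 15 age and temperature results of members that passed, 1 (Sod3 with age in Dpp4+ fibroblasts) passed in every alternative, and of 83 that did not, 18 passed in at least 1. Of 74 class differences, 59 passed in every alternative. Without 1 library, which leaves 1 residual degree of freedom, members called for age numbered 3 to 4 in Dpp4+, 0 to 3 in Icam1+, 1 to 3 in Cd142+, 0 to 2 in endothelial and 0 to 1 in SMC/pericyte sums, for temperature 0 to 4, 1 to 4, 1 to 3, 1 to 4 and 0, between classes 9 to 10 and for the interaction 0 to 1. Without the temperature term, members called for age were 1, 0, 1 and 0 in the first 4 classes, and without the age term those for temperature were 0 in each. Age counts were 0 in endothelial cells with DESeq2, total UMIs, thinning, fixed limits or doublets left out, and 2 with no filter on low counts. They were 1 in SMC/pericytes with thinning, no filter or doublets left out, 2 there with fixed limits, and 1 in Cd142+ cells with thinning. Temperature counts were 4 in Dpp4+ cells with DESeq2, total UMIs or no filter. They were 0 in endothelial cells with DESeq2, total UMIs, fixed limits or doublets left out, 0 in Cd142+ cells with thinning, and 1 in SMC/pericytes with fixed limits. No filter gave 2 in Cd142+ cells, 3 in endothelial cells and 4 for the interaction, where fixed limits gave 1. No floor gave 0, 1 and 2 in Dpp4+, Icam1+ and endothelial cells. Scaling by total UMIs turned Gpx1 to 0.10 (endothelial over Dpp4+), 0.17 (SMC/pericytes over Icam1+) and 0.33 (endothelial over Cd142+) and Gpx4 to 0.20 (endothelial over Dpp4+), and fixed limits turned Gpx1 in SMC/pericytes to 0.20 over Icam1+, 0.055 over Cd142+ and 0.0038 over endothelial cells. The cause was not tested. All genes called for age numbered 2125 in Dpp4+ (704 to 2745 over the alternatives), 1777 in Icam1+ (262 to 2472), 1326 in Cd142+ (371 to 1670), 216 in endothelial (20 to 670.0) and 16 in SMC/pericyte sums (3 to 242), and for temperature 699 (0 to 2162), 698 (0 to 2114), 322 (0 to 838), 220.0 (3 to 539) and 15 (1 to 325). The age fit compares the ages within each temperature, and the counts without the temperature term are those without that pairing.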
